A study of Mus musculus with 9 samples.

Results

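Genes of the interferon response and of antigen processing were followed in islets that lacked *Raptor* in beta cells. The group was a list of 34 gene symbols matched in the platform annotation. The matching used no measured value, but the list was chosen with earlier results of these data known. Shares of members set beside those of all genes are therefore descriptions only. A probe set assigned to 1 gene was found for 33 of the 34, and the brightest such probe set stood for each gene. *Isg15*, a ubiquitin-like modifier, had no probe set of its own, because its probe set also carried a second gene name, and it has no value here. *Mx2*, a dynamin-like antiviral GTPase, was among the dimmest 0.25 of genes, which were left untested. The remaining 32 members were tested among 13644 genes, out of 18193 genes named on the array.

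The arrays measured islet RNA from male mice at 8 weeks of age, 5 arrays for the WT group and 4 for the KO group. Both groups carried 2 floxed *Raptor* alleles (Raptor flox/flox). KO mice (βRapKO) also carried RIP-Cre, in which the promoter of the rat insulin gene drives Cre recombinase, while WT mice were littermates without Cre. Mice with RIP-Cre but no floxed allele were not analysed here. The labels give the strain as C57BL/6, whereas the methods describe a mixed background for the Cre line. Every array held RNA pooled from the islets of 5 animals of 1 genotype, so the spread between arrays is a spread between pools. *Raptor* encodes the scaffold that brings substrates to the kinase complex mTORC1. Its transcript (*Rptor*) averaged 9.47 ± 0.21 on the 5 WT arrays and 8.75 ± 0.32 on the 4 KO arrays (log2 signal, mean ± SD). The groups only just failed to overlap, with KO replicate 3 at 9.213 and WT replicate 4 at 9.216. The difference was -0.72 ± 0.17 (SE; limma adjusted p = 0.0410). That call held in 7 of 18 alternative settings, and averaging the *Rptor* probe sets gave a difference of -0.16 (adjusted p = 0.888). Cre is not expected in islet cells that do not use the insulin promoter, and their RNA was in the pools too.

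Interferons bind receptors at the cell surface, and the receptor-bound kinases pass the signal on to transcription factors. STAT2 and IRF9 take part in binding the interferon-stimulated response element (ISRE) in target promoters, and the gamma-activated site (GAS) is another element of such promoters. The targets include antiviral effectors, RNA sensors that feed back on the pathway, and the machinery that cuts proteins into peptides and loads them on MHC class I molecules. In pancreatic islets the pathway is best known from autoimmune diabetes, in which beta cells show high class I.

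The promoters of the members were searched for these elements, which occur in promoters of the pathway's targets. The RefSeq promoter table (GRCm38.p6) held 29 of the 34 members, and the 250 bases before each start were read on both strands. The core of an ISRE, searched as GAAA, any 2 bases and GAAA again, was found in 11 members, compared with 3.46% of all 27025 genes in the table. The letters TTCNNNGAA, the core of a GAS, were found in 8 members, compared with 8.13% of all genes, and 3 members held both. A match is only a match of letters, and binding was not measured. A site with other letters, or outside the 250 bases, would be missed. For 8 of the 11 members with an ISRE-type match, windows of 30 bases around it are shown 5′ to 3′ on the strand of the gene. The fixed GAAA or TTTC blocks are in capitals. The windows are chr3:142620594-142620623 (plus strand) for *Gbp2*, chr3:142559992-142560021 (plus strand) for *Gbp3*, chr19:34640794-34640823 (plus strand) for *Ifit1* and chr19:34583397-34583426 (plus strand) for *Ifit3*. Those of the other members are chr5:120907526-120907555 (minus strand) for *Oas1a*, chr12:26456553-26456582 (minus strand) for *Rsad2*, chr8:71537580-71537609 (minus strand) for *Bst2* and chr2:122147538-122147567 (plus strand) for *B2m*.
Gbp2: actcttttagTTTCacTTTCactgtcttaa
Gbp3: gacacagTTTCagTTTCtaTTTCccagatc
Ifit1: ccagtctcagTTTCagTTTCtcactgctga
Ifit3: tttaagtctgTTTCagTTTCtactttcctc
Oas1a: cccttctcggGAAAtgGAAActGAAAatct
Rsad2: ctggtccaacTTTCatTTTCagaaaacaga
Bst2: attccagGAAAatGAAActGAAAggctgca
B2m: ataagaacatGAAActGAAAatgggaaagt

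*Gbp3*, *Oas1a* and *Bst2* held 3 such blocks in a row, and the other windows held a single pair. The match closest to the start was that of *Oas1a*, at -20 to -5, and the one farthest among those shown was that of *B2m*, at -139 to -130. Matches not shown were those of *Stat2* (-222 to -213), *Irf2* (-241 to -232) and *Isg15* (-78 to -57). Members with and without a match are compared below, after the values.

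A small number of antiviral effectors was higher in KO islets, and most members were not distinguishable between the genotypes. *Ifitm3*, *Usp18* and *Gbp2* were called higher, at an adjusted p under 0.05 from limma's moderated test over all 13644 genes, and no member was called lower. These 3 of 32 members are 9.38%, where 3.67% of all tested genes were called higher and 2.63% were called lower (6.30% in either direction). At an unadjusted p under 0.05, 7 members were higher and 2 were lower, that is 21.9% and 6.25%, against 13.3% and 8.43% of all tested genes. Of the 860 genes called over the whole array, 58.3% were higher in KO. When each array was centred on its median, 474 genes were called and 45.1% of those were higher. With that centring no member was called, so the calls depended on the scaling of the arrays. A rule of 1.5-fold with an unadjusted p under 0.05 took in *Gbp2*, *Ifitm3* and *Irf8* as higher, 9.38% of the members against 6.38% of all tested genes, and none as lower against 2.81%.

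The KO minus WT differences of the 32 members ran from -0.44 to 0.96 on the log2 scale, with a median of 0.18. The median of all tested genes was 0.04. A positive difference was measured for 22 members (68.8%), compared with 56.2% of all tested genes. *Gbp2* alone lay outside the range that held the middle 90% of all tested genes, -0.55 to 0.82. Without the 3 called genes, the median of the other 29 members was 0.11. Centring the arrays on their medians, or quantile normalization, gave a member median of 0.14 and left 22 members positive.

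**Figure D1:**
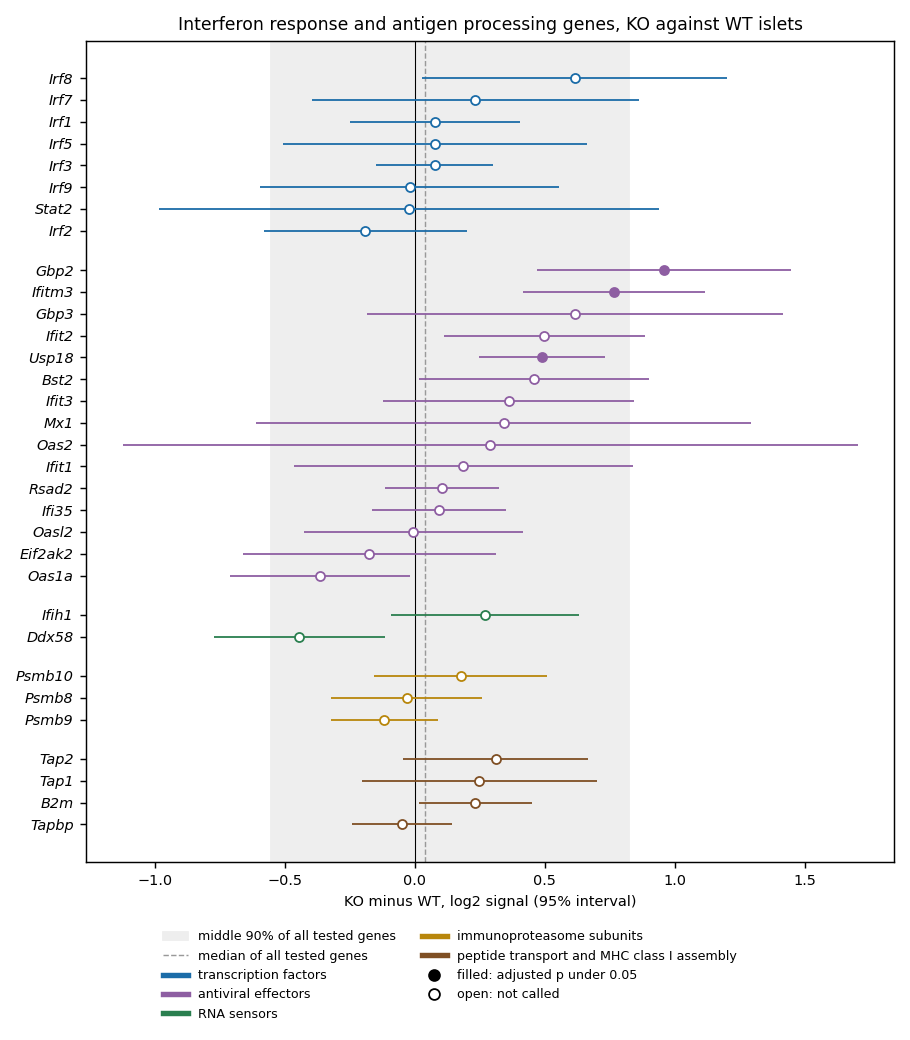
KO minus WT difference of each tested member on the log2 signal scale, with the 95% interval from limma, ordered by role; filled points passed an adjusted p under 0.05, the grey band holds the middle 90% of all tested genes and the dashed line is their median. *Gbp2*, *Ifitm3* and *Usp18* are the filled points, and *Gbp2* is the one point beyond the band.

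The antiviral effectors held all of the called members. *Ifitm3* encodes a membrane protein that hinders the entry of viruses through endosomes. Its log2 signal was 10.35, 10.56, 11.02, 10.42 and 10.96 in the WT arrays and 11.48, 11.48, 11.35 and 11.41 in the KO arrays. Every KO array was above every WT array, and the KO arrays lay closer together. The difference was 0.77 ± 0.15 (SE; 95% interval 0.42 to 1.12), a 1.70-fold higher signal in KO (adjusted p = 0.0244). *Usp18* encodes the protease that removes ISG15 from proteins and dampens signalling at the type I interferon receptor. It read 10.34, 10.47, 10.51, 10.41 and 10.05 in WT and 10.86, 10.91, 10.78 and 10.82 in KO, again without overlap. KO exceeded WT by 0.49 ± 0.11 (SE; 95% interval 0.25 to 0.73), or 1.40-fold (adjusted p = 0.0325). *Gbp2*, a guanylate-binding GTPase that acts on vacuoles of intracellular pathogens, read 6.83, 7.06, 7.17, 6.67 and 7.34 in WT and 7.45, 8.33, 7.79 and 8.32 in KO. The lowest KO array stood just above the highest WT array, so the groups did not overlap. The difference of 0.96 ± 0.22 (SE; 95% interval 0.47 to 1.45) was the largest among the members tested and equals a 1.94-fold higher signal (adjusted p = 0.0358). A second *Gbp2* probe set gave 0.81 ± 0.24 (SE).

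These were the 3 members without overlap between the groups, all with KO above, and 7.43% of all tested genes had KO above without overlap, 5.05% had KO below (12.5% in either direction). Each of the 3 calls was lost in some fits that left out 1 array. Such fits called 375 to 802 genes over the whole array, against 860 in the main fit. *Ifitm3* lost its call without WT replicate 2 or without any one KO array (adjusted p from 0.0534 to 0.0735). *Usp18* lost it without WT replicate 1, WT replicate 4 or any one KO array (0.0558 to 0.0924), and *Gbp2* without WT replicate 1, 2, 3 or 4 or KO replicate 2, 3 or 4 (0.0531 to 0.0914). With median centring the adjusted p was 0.0611 for *Ifitm3*, 0.0739 for *Usp18* and 0.0628 for *Gbp2*. *Gbp2* also lost its call with quantile normalization (limma adjusted p = 0.0541) and with the methods' t-test (adjusted p = 0.0658). Of the alternative settings, *Ifitm3* kept its call in 10 of 18, *Usp18* in 8 of 18 and *Gbp2* in 4 of 17. The difference of the 3 ran from 0.41 to 1.13 over the settings tried. Because their groups did not overlap, leaving out 1 array could not turn its sign.

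Markers of other islet cell types moved in the same arrays. The 10 stromal markers averaged 7.63 to 8.93 in the WT arrays and 9.37 to 10.14 in the KO arrays, and 7 of the 10 were called higher. The 11 endothelial markers averaged 9.48 to 9.66 in WT and 9.76 to 10.09 in KO, with none called. Beta cell markers went the other way, from 13.84 to 14.02 in WT down to 13.23 to 13.42 in KO. Of the 8 that were tested, 5 were called lower (*Slc2a2*, *Slc30a8*, *Ucn3*, *Nkx6-1* and *Pdx1*). The others tested, *Ins2*, *Iapp* and *G6pc2*, differed by -0.05, -0.12 and -0.24 and were not called. The part of these shifts in the differences of *Ifitm3*, *Usp18* and *Gbp2* was not tested. In RNA from whole islets, more cells of a type and more RNA per cell cannot be told apart.

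The other antiviral effectors did not pass the test, and 9 of the 12 had a positive difference. The IFIT proteins bind foreign RNA ends and hold back translation. *Ifit2* read 7.02, 6.99, 7.13, 6.98 and 7.08 in WT and 7.74, 7.97, 7.37 and 7.06 in KO. KO replicate 4 lay within the tight WT range while the other KO arrays were above it. The difference was 0.50 ± 0.17 (SE; 95% interval 0.11 to 0.88; adjusted p = 0.126), and without KO replicate 4 it was 0.65 (adjusted p = 0.0459). That fit leaves out the KO array nearest to WT, and it was the only 1 of 17 alternative settings that called *Ifit2*. *Ifit3*, its neighbour on chromosome 19, read 7.78, 7.36, 6.99, 7.05 and 7.38 in WT and 8.21, 7.44, 7.68 and 7.37 in KO. These groups overlapped, with a difference of 0.36 ± 0.21 (SE; adjusted p = 0.369).

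*Bst2* encodes tetherin, which holds budding virions at the cell surface. It read 7.72, 7.19, 7.05, 7.56 and 7.16 in WT and 7.84, 7.30, 8.01 and 8.04 in KO. Only KO replicate 2 fell within the WT range, and the difference was 0.46 ± 0.20 (SE; adjusted p = 0.214). *Gbp3*, of the same GTPase family as *Gbp2* and close to it on chromosome 3, read 6.61, 7.04, 8.19, 6.51 and 7.61 in WT and 7.36, 8.22, 7.63 and 8.02 in KO. The WT arrays were spread over a wide range that took in 3 of the KO arrays (difference 0.62 ± 0.35 SE, adjusted p = 0.355).

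The oligoadenylate synthases sense double-stranded RNA and switch on RNase L. *Oas1a* read 9.05, 8.79, 9.09, 8.89 and 8.69 in WT and 8.20, 8.65, 8.41 and 8.89 in KO. It was the effector with the most negative difference, -0.36 ± 0.15 (SE; adjusted p = 0.205), and KO replicate 4 lay among the WT arrays. *Oas2* had a WT SD of 1.28 and a difference of 0.29, and *Oasl2* differed by -0.01. Mouse *Oas1* genes and IFIT genes have close paralogues, and whether their probes read the named gene alone was not tested.

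The differences of *Ifit1*, *Rsad2*, *Ifi35*, *Mx1* and *Eif2ak2* were 0.19, 0.11, 0.09, 0.34 and -0.18. *Rsad2* encodes viperin, and its 95% interval (-0.11 to 0.33) was among the narrowest of the effectors. *Eif2ak2* encodes PKR, the kinase that stops translation when it meets double-stranded RNA. *Mx2* was too dim to test, with 2.98 to 6.80 in WT and 4.12 to 6.88 in KO. Over the 15 tested effectors the median difference was 0.34, and 0.24 over the 12 that were not called.

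**Figure D2:**
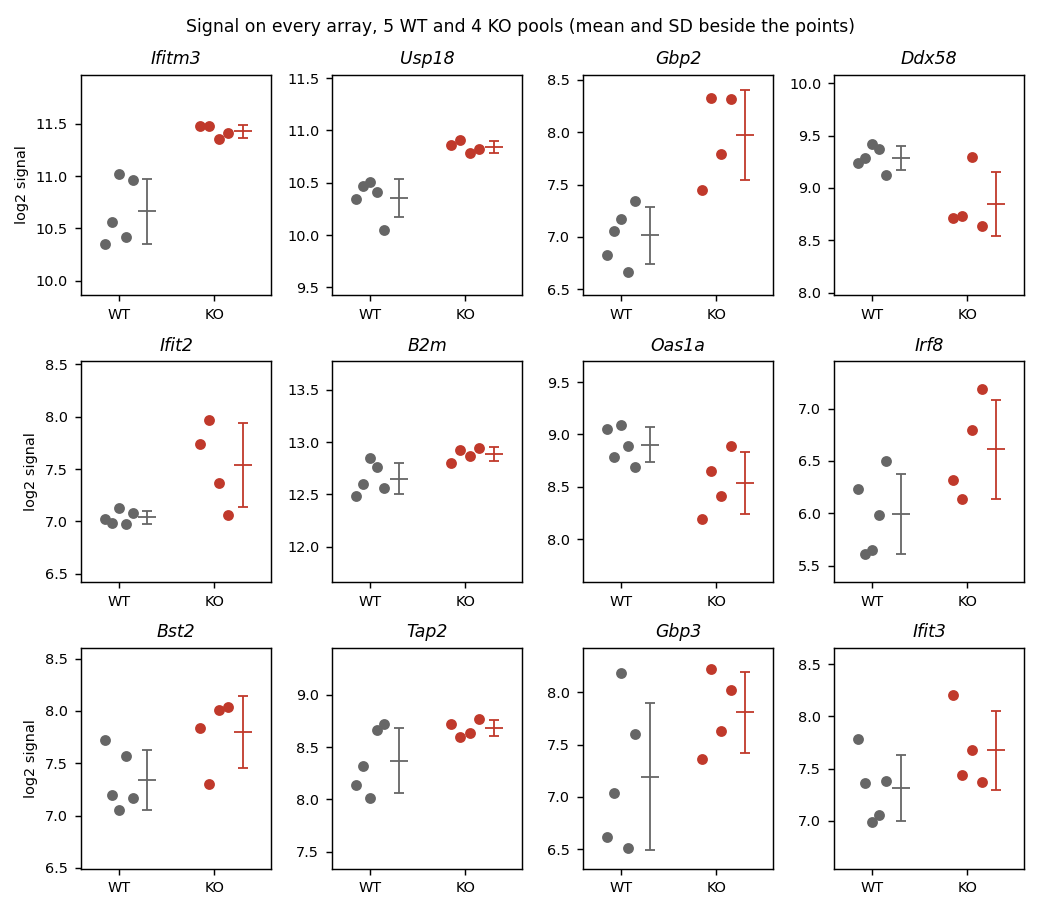
Log2 signal on each array for the 12 members with the lowest p, 5 WT and 4 KO points each, with the group mean and SD. *Ifitm3*, *Usp18* and *Gbp2* show KO points wholly above WT points, while the KO points of *Ddx58* and *Ifit2* include 1 array at the level of WT.

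The transcription factors that carry the response showed no call among 8 tested, and their median difference was 0.08. *Irf8*, a factor of myeloid and B cells, had the largest difference of them. It read 6.23, 5.61, 5.65, 5.98 and 6.50 in WT and 6.32, 6.14, 6.80 and 7.19 in KO. The groups overlapped through KO replicates 1 and 2, and the difference was 0.62 ± 0.26 (SE; 95% interval 0.03 to 1.20; adjusted p = 0.208). *Irf8* was dim, with a WT mean of 5.99 near the filter at 5.51. A second, dimmer *Irf8* probe set gave 1.25 ± 1.10 (SE), and averaging the probe sets gave a limma adjusted p of 0.480. KO replicate 4, the array with the highest *Irf8*, also had the highest mean of the 5 tested lymphocyte markers, 7.87 against 6.07 to 6.12 in the other KO arrays and 5.88 to 6.89 in WT. Without KO replicate 4 the *Irf8* difference was 0.42, and the part of lymphocytes in it was not tested.

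*Stat2* and *Irf9*, which take part in binding the ISRE, differed by -0.02 each. The intervals were wide, -0.99 to 0.94 for *Stat2* and -0.60 to 0.55 for *Irf9*, and do not bound a change tightly. *Irf7*, the factor that amplifies type I interferon production, differed by 0.23 (95% interval -0.39 to 0.86). *Irf1*, *Irf3* and *Irf5* differed by 0.08 each, and *Irf2*, which competes with *Irf1* for its sites, by -0.19. The probe sets of *Irf1*, *Irf2*, *Irf3*, *Irf7* and *Irf9* are of kinds that can read more than 1 transcript, as are those of some other members, such as *Ifi35*.

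The 2 RNA sensors lay on opposite sides of 0, and neither was called. *Ddx58* encodes RIG-I, which recognises viral RNA ends. It read 9.24, 9.29, 9.42, 9.37 and 9.12 in WT and 8.71, 8.73, 9.30 and 8.64 in KO. KO replicate 3 lay at the WT level and the other 3 KO arrays were below every WT array. The difference was -0.44 ± 0.15 (SE; 95% interval -0.77 to -0.12; adjusted p = 0.110), the most negative of any member. Without KO replicate 3, the KO array nearest to WT, it was -0.60 (adjusted p = 0.0229), the only 1 of 18 alternative settings that called *Ddx58*. Other *Ddx58* probe sets gave -0.17 and -0.0046, and the average over its probe sets differed by -0.21 (adjusted p = 0.822). *Ifih1* encodes MDA5, which recognises long double-stranded RNA, and differed by 0.27 (adjusted p = 0.372).

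The immunoproteasome subunits were called in neither direction. *Psmb8*, *Psmb9* and *Psmb10* replace the catalytic subunits of the constitutive proteasome when interferon acts, and change the peptides offered to MHC class I. Their differences were -0.03 (95% interval -0.32 to 0.26), -0.12 (-0.32 to 0.09) and 0.18 (-0.16 to 0.51). The constitutive counterparts *Psmb5*, *Psmb6* and *Psmb7* differed by 0.03, 0.06 and -0.05. *Psmb8*, *Psmb9*, *Tap1* and *Tap2* are neighbours on chromosome 17 with no other protein-coding gene between them in the RefSeq annotation, and none of the 4 passed the test.

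Peptide transport and class I assembly also gave no call, and the median difference of its 4 genes was 0.24. *B2m*, the light chain of every class I molecule, read 12.49, 12.60, 12.85, 12.76 and 12.57 in WT and 12.80, 12.93, 12.87 and 12.95 in KO. WT replicate 3 lay above KO replicate 1, and the difference was 0.23 ± 0.10 (SE; 95% interval 0.01 to 0.45; adjusted p = 0.201). A second *B2m* probe set gave 0.24. *Tap2*, a chain of the transporter that carries peptides into the endoplasmic reticulum, read 8.14, 8.32, 8.01, 8.67 and 8.72 in WT and 8.72, 8.60, 8.64 and 8.77 in KO. The KO arrays clustered at the top of the WT range (difference 0.31 ± 0.16 SE, 95% interval -0.05 to 0.67, adjusted p = 0.293). *Tap1*, its partner, differed by 0.25 (95% interval -0.20 to 0.70), and *Tapbp*, which encodes the chaperone tapasin, by -0.05 (-0.24 to 0.14).

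**Figure D3:**
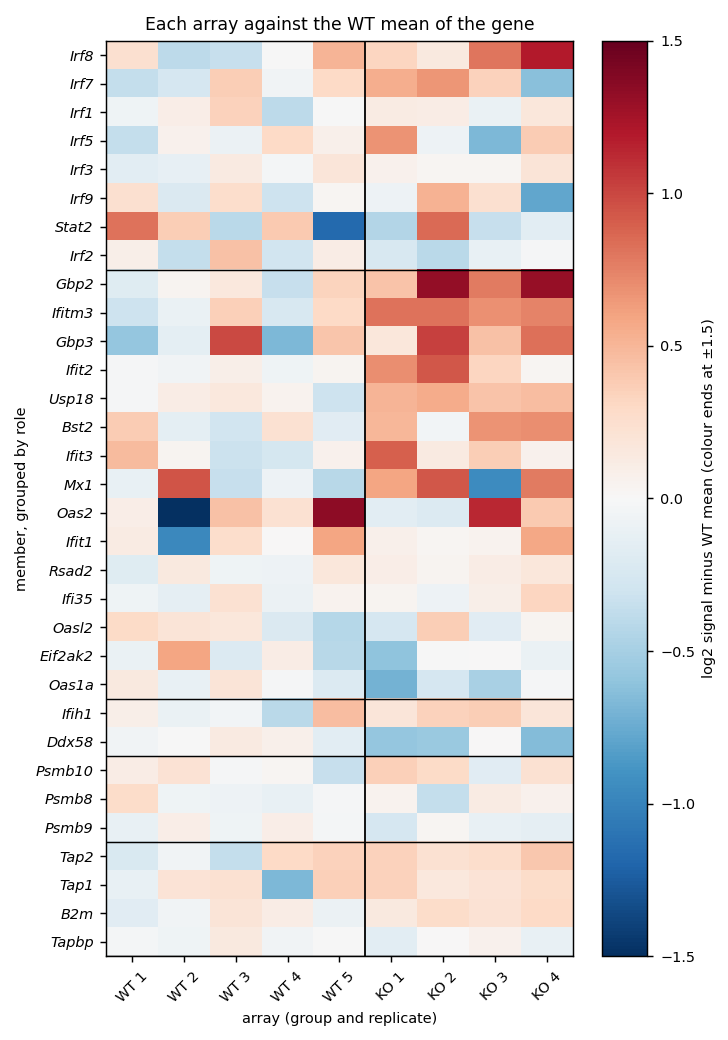
Log2 signal of the 32 tested members on each of the 9 arrays minus the member's WT mean, ordered by role. The KO columns differ among themselves, and the rows of *Ifitm3*, *Usp18* and *Gbp2* are higher on all 4 KO arrays.

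The arrays of 1 genotype did not move as a block. Across the members tested, KO replicate 2 had the highest value for 9 and KO replicate 4 for 6, whereas KO replicate 3 was highest for none. KO replicate 4 had the lowest value of any array for *Irf7* (6.48) and *Irf9* (7.93), and the highest for *Irf8* (7.19). The mean level of all tested members was nevertheless higher on each KO array (8.83 to 8.94) than on any WT array (8.61 to 8.77). How often the means of other gene lists separate in this way was not computed. The endothelial and stromal means above separated too. The 73 tested genes of the further pathway lists below averaged 9.69 to 9.82 in KO and 9.57 to 9.76 in WT, which overlap. Antiviral effectors averaged 8.45 to 8.66 in KO and 8.13 to 8.36 in WT, and 8.08 to 8.28 against 7.82 to 8.06 without the 3 called genes. Class I assembly genes averaged 10.50 to 10.54 in KO and 10.19 to 10.48 in WT. Transcription factors (8.33 to 8.54 in KO, 8.21 to 8.40 in WT), sensors and immunoproteasome subunits overlapped between the genotypes. Dim members varied most between arrays of a genotype (SD within genotype), with *Oas2* (SD 1.05) and *Stat2* (0.71) at one end and *Psmb9* (0.11) and *Tapbp* (0.09) at the other.

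**Figure D4:**
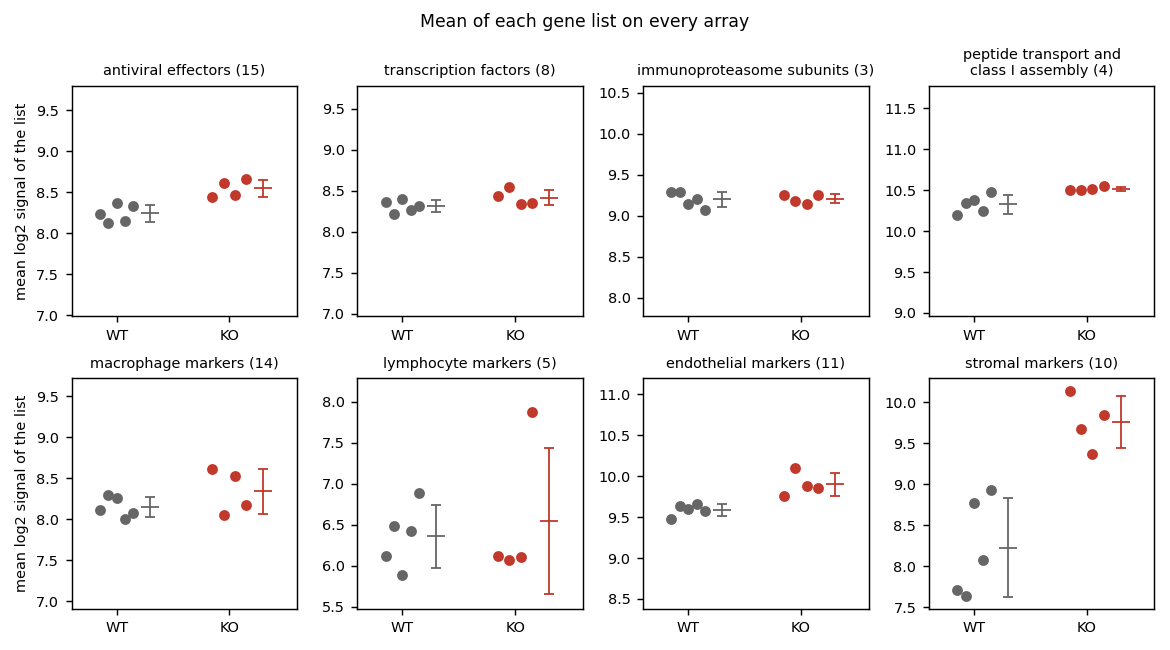
Mean log2 signal per array of the member roles and of marker lists for other islet cell types, 5 WT and 4 KO points each. Effector, class I assembly, endothelial and stromal means are higher in every KO array, and the immunoproteasome means overlap.

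Members with and without the ISRE-type letters overlapped in their differences. The 10 tested members with a match ran from -0.36 (*Oas1a*) to 0.96 (*Gbp2*), with a median of 0.21 and 7 positive. The 18 tested members in the promoter table without a match had a median of 0.08 and 11 positive. *Ifitm3*, one of the called genes, had no match in its window, *Usp18* was not in the table, and *Gbp2* held its pair of TTTC blocks at -59 to -50. *Ddx58* had no match either.

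Further genes of the pathway were taken from lists of receptors, ligands, adaptors, other interferon-stimulated genes and antigen presentation genes. Of 99 genes listed, 73 could be tested, and 3 were called higher and none lower, at a median difference of 0.08. Over all tested genes 3.67% were called higher and 2.63% lower, so the count of higher calls was near that of the whole array. *Ifnar2*, a chain of the type I interferon receptor, was the only one called among 14 receptor and signalling genes. It read 9.78, 9.73, 9.78, 10.28 and 10.11 in WT and 10.61, 10.42, 10.61 and 10.47 in KO, a difference of 0.59 ± 0.13 (SE; adjusted p = 0.0357) without overlap. Its call held in 6 of 18 alternative settings and was lost without WT replicate 1, 2 or 3 or any one KO array (adjusted p from 0.0659 to 0.104). The interferon ligands themselves gave no result. Of 8 listed, *Ifnb1*, *Ifng*, *Ifna2* and *Ifna4* were too dim to test and the other 4 had no probe set of their own.

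Of 32 further interferon-stimulated genes, 2 were called and 21 were positive, with a median difference of 0.20. The shares over all tested genes were 3.67% called higher and 56.2% positive. *Ifi30* encodes GILT, a lysosomal reductase that prepares antigens for MHC class II. It read 10.52, 10.59, 10.70, 10.78 and 10.61 in WT and 11.19, 11.22, 11.01 and 11.33 in KO, a difference of 0.55 ± 0.09 (SE; adjusted p = 0.0122) without overlap. The *Ifi30* call held in 16 of 18 alternative settings and without each array in turn. *Xaf1*, which binds the apoptosis inhibitor XIAP, rose from 8.74 to 9.24, by 0.50 ± 0.10 (SE; adjusted p = 0.0225), and lost its call without KO replicate 1, 2 or 3 (0.0594 to 0.0691).

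No call was made among 8 sensing adaptors, 9 further class I genes or 7 MHC class II genes. Their medians were 0.16, -0.03 and 0.03, and the last turned to -0.04 with quantile normalization. The genes of lowest p in them were *Ticam1*, the adaptor of TLR3 (0.53 ± 0.18 SE, adjusted p = 0.114), *Canx*, the chaperone calnexin (-0.17 ± 0.09 SE, adjusted p = 0.314), and *H2-Aa*, an MHC class II chain (-0.12 ± 0.11 SE, adjusted p = 0.608).

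**Figure D5:**
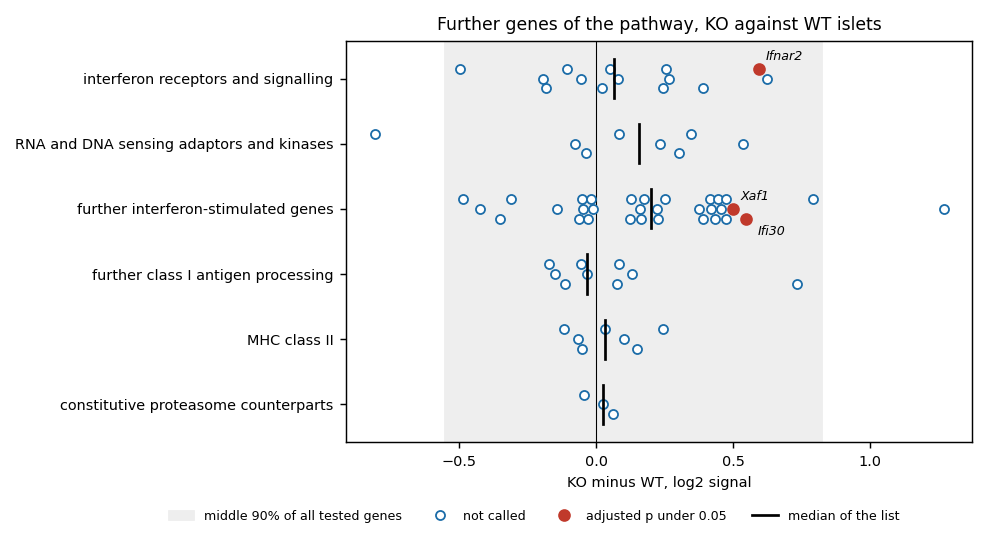
KO minus WT difference on the log2 signal scale of each further pathway gene tested, by list, with the list median as a bar and the middle 90% of all tested genes in grey. *Ifnar2*, *Xaf1* and *Ifi30* are the filled points.

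Immune cells that carry high levels of these genes were also read from their markers. All 14 macrophage markers were tested, 12 were positive and 1 was called, *C1qa* (0.45 ± 0.11 SE, adjusted p = 0.0491). The shares over all tested genes were 56.2% positive and 3.67% called higher. *C1qb* and *C1qc* differed by 0.08 and 0.10, while *Cd68* and *Fcer1g*, the markers that were not positive, differed by -0.03 and -0.22. The mean of the 14 markers ran from 8.00 to 8.29 in WT and from 8.05 to 8.62 in KO. Among 12 lymphocyte markers, *Cd3e*, *Cd3g*, *Cd3d*, *Cd4* and *Nkg7* were too dim to test, and none of the 5 tested was called. Of the 5 plasmacytoid dendritic cell markers tested, *Bst2*, *Irf8* and *Irf7* are members described above. The other 2, *Siglech* and *Tcf4*, differed by 0.11 and -0.03, and neither was called. The part of macrophages in the differences of *Gbp2*, *Ifi30* and *Irf8* was not tested.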

How the data were processed

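Islet RNA was hybridised by the authors to 9 Affymetrix mouse expression arrays as biotin-labelled cRNA from a 3′ in vitro transcription protocol. The deposited values are log2 signals. The trimmed mean of the linear signal is nearly equal on all arrays. Genespring is named in the methods, and the summarisation is not given in the sources used here. Groups and replicate numbers came from the sample titles. Of 45037 probe sets, 34945 carry 1 gene in the platform annotation, 932 several and 9160 none here. The brightest single-gene probe set stood for each gene, the dimmest 0.25 of genes by mean was left out (mean log2 under 5.51), and KO was compared with WT in limma 3.58.1 (R 4.3.3; lmFit, eBayes) with Benjamini-Hochberg adjustment over 13644 genes. A gene was called at an adjusted p under 0.05. The scripts were tested on simulated data. Replicates were separate pools, and p-values measure only how such pools vary. Precision is limited by the few arrays.

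Alternatives were no filter, a stricter filter, averaged probe sets, median centring, quantile normalization, a floor of 4, an intensity trend, the methods' t-test, a replicate block and leaving out each array. The members and lists were chosen with earlier results of these data known. Values on every array are given for called members, members without overlap, and those next by lowest p up to 12. In each further list, called genes or, failing those, the gene of lowest p are named. Promoter sequences and gene neighbours are from RefSeq (GRCm38.p6).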

Additional observations from a re-analysis of the deposited data

Results flagged for a closer look

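In 6 of 80 groups examined (the tested members, *Rptor* and the named further genes, each in WT and in KO), 1 array stood far from the rest, where chance alone gives about 1 in 20 groups. *Ddx58* was 9.30 on KO replicate 3, while the next KO array was at 8.73. *Ifit1* was 8.19 on KO replicate 4, with the next at 7.68, and *Eif2ak2* was 7.78 on KO replicate 1, with the next at 8.29. *Psmb8* was low on KO replicate 2 (8.65, next 9.06) and high on WT replicate 1 (9.28, next 8.98). *Mx1*, a dim gene, was 6.64 on WT replicate 2, with the next at 5.62. The 6 cases are all among the members and fall on 6 different arrays.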

How the results depend on the processing

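The calls of *Ifitm3*, *Usp18* and *Gbp2* were not kept under all alternatives. Their differences stayed positive, but with groups that do not overlap the fits without 1 array could not turn them. Against 860 genes called, other fits called 452 with no filter on dim genes, 317 with averaged probe sets, 474 with median centring, 61 with a replicate block and 375 to 802 without 1 array. The 3 members called higher became 0 with no filter, 1 with averaged probe sets, 0 with median centring, 0 with the block and 0 to 3 without 1 array. The count of members called lower was 0 to 1 without 1 array (*Ddx58*, without KO replicate 3). Members past 1.5-fold and an unadjusted p under 0.05 were 3 in the main fit, and 1 with the stricter filter. They were 2 with no filter, averaged probe sets, median centring, quantile normalization, the t-test or the intensity trend, and 2 to 4 without 1 array. The 3 further pathway genes called higher became 8 with the stricter filter, 1 with averaged probe sets, 0 with median centring, 7 with the intensity trend, 0 with the block and 1 to 3 without 1 array. Those called lower became 1 with the stricter filter, 1 with the intensity trend and 0 to 1 without 1 array. The stricter filter left 18 members, with a median of 0.077. Averaging probe sets turned *Irf3* (-0.19), *Psmb8* (0.47) and *Tapbp* (0.049). Without 1 array, the differences ran from -0.71 to 0.45 for *Stat2*, -0.019 to 0.16 for *Irf1*, -0.12 to 0.33 for *Irf5*, -0.20 to 0.23 for *Irf9*, -0.057 to 0.33 for *Ifit1*, -0.24 to 0.63 for *Oas2*, -0.13 to 0.076 for *Oasl2* and -0.082 to 0.077 for *Psmb8*. Without turning sign, they ran from 0.14 to 0.77 for *Mx1*, -0.28 to -0.026 for *Eif2ak2*, 0.016 to 0.15 for *Ifi35*, 0.089 to 0.52 for *Irf7* and 0.077 to 0.34 for *Tap1*. The cause was not tested. Deviations of same-numbered arrays correlated weakly (-0.04, 0.09, 0.12 and -0.03). The WT array with the highest correlation had the same number for KO replicates 2 and 3, and another number for KO replicates 1 and 4. Whether the numbers pair the samples was not settled.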
